A study of Capra hircus with 12 samples.

Results

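Of 24116 loci measured in black goat (Capra hircus) testis, 157 are described here and called members. They stood at 2 FPKM or more in every neonatal and prepuberty library. From puberty on they stood at no more than 25% of their lowest such value. These limits were met by 240 loci. The members also met limits on identifier number, on mean level and on the difference between the neonatal and prepuberty means. Total RNA from wild-type testis was sequenced at 4 ages, and the labels carry no treatment, so age is the only difference between the groups that they name. The groups were neonatal (titles D3, 3 libraries), prepuberty (D30, 3 libraries), puberty (D90, 2 libraries) and postpuberty (D180, 3 libraries). Puberty replicate 1 was not analysed here, and the puberty replicates are numbered 2 and 3 as in their titles, although the names of their deposited tables carry 3 and 4. The level of a locus is given as FPKM, which is fragments counted on the locus scaled to its length and to the size of the library. Neonatal and prepuberty libraries are called younger below, and puberty and postpuberty libraries older.

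In the young mammalian testis the tubules are solid cords of Sertoli cells, the supporting cells, around a few early germ cells, and the tissue between them holds Leydig cells, which make androgens, with fibroblasts and vessels. At puberty the germ cells multiply, enter meiosis and form spermatids, until they make up most of the cells of the tissue. RNA from each of the other cell types is then a smaller part of the total. In bulk tissue, fewer cells of a type and less RNA per cell cannot be told apart. Loci with an MSTRG identifier are transcribed regions put together from the reads by an assembler. They can be coding genes, parts of them or long non-coding RNAs, and the files do not say which.

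The members were chosen by their measured values, so their fall at puberty is a description and is not tested. They carry an MSTRG number below a set limit (the highest member has 404198), had a mean of under 20 FPKM over the 11 libraries and reached at least 2 FPKM in each of the 6 younger libraries. Their lowest younger value was at least 4 times their highest older value, and their neonatal and prepuberty means lay under 1.5-fold apart. Of 21782 loci with such a number, 21741 met the limit on the mean, 1019 of these also met the floor of 2 FPKM, 207 of these met the ratio of 4, and 157 also met the limit of 1.5-fold. Just inside the ratio limit stood MSTRG.120766 at 4.00274 and MSTRG.292080 at 4.00322, and just outside stood MSTRG.143575 at 3.99 and MSTRG.195441 at 3.99. At the floor, the lowest younger value was 2.01 FPKM in MSTRG.91118 and 2.02 in MSTRG.16680, against 1.9953 in MSTRG.384910 and 1.9945 in MSTRG.346109, which were left out. At the limit of 1.5-fold, MSTRG.134414 (1.4993) and MSTRG.288349 (1.495) were in, and MSTRG.321755 (1.503) and MSTRG.61165 (1.504) were out. The members with the highest means over all libraries were MSTRG.98065 at 19.7 FPKM and MSTRG.26379 at 15.04, and MSTRG.161852 was left out at 20.6.

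The scaling totals read from the steps of the values ran from 19128357 to 35614224 reads per library, and reads on all listed loci made up 13.7% to 25.6% of them. None of the 24116 identifiers matched a gene table of the goat (0 matches), so the members have no symbol and no genome position here. The labelled tissue could not be checked against markers, since 0 of 49 marker genes of testis cell types could be matched.

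In the younger testis the members were moderately abundant. Their mean over the 6 younger libraries ran from 2.20 to 32.6 FPKM with a median of 5.37, and 34 of the 157 reached 10 FPKM. The member with the highest level was MSTRG.98065, with 39.2, 34.4 and 27.7 FPKM in the 3 neonatal libraries and 33.1, 32.1 and 28.9 in the 3 prepuberty libraries. It stood at 5.33 and 3.44 FPKM in the puberty libraries and at 4.29, 3.98 and 3.89 in the postpuberty libraries. The younger libraries thus lay between 27.7 and 39.2 FPKM and no older library passed 5.33, which makes means of 32.6 ± 4.14 (SD, n = 6) and 4.19 ± 0.708 (n = 5). MSTRG.26379 had 24.0, 32.6 and 24.0 FPKM in neonatal and 24.3, 20.9 and 23.7 in prepuberty libraries, then 5.12 and 2.15 in puberty and 3.13, 3.12 and 2.51 in postpuberty libraries. Puberty replicate 2 was the highest of its older libraries and more than doubled puberty replicate 3.

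MSTRG.109844 had 25.8, 25.1 and 25.1 FPKM in neonatal libraries, 21.0, 22.5 and 15.6 in prepuberty, 1.54 and 0.864 in puberty and 1.58, 1.94 and 1.72 in postpuberty libraries. Its 3 neonatal values lay close together, and its lowest older value was again in puberty replicate 3. MSTRG.134509 had 23.7, 24.9 and 24.8 FPKM in neonatal, 20.9, 20.5 and 18.1 in prepuberty, 3.15 and 2.64 in puberty and 2.56, 3.14 and 3.29 in postpuberty libraries. Here the puberty and postpuberty values overlapped. MSTRG.345013 had 24.96, 27.6 and 26.5 FPKM in neonatal, 15.6, 23.8 and 13.4 in prepuberty, 1.34 and 1.02 in puberty and 1.45, 1.35 and 1.29 in postpuberty libraries. Its 3 neonatal libraries all lay above its 3 prepuberty libraries, and prepuberty replicate 2 came nearest to them.

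**Figure D1:**
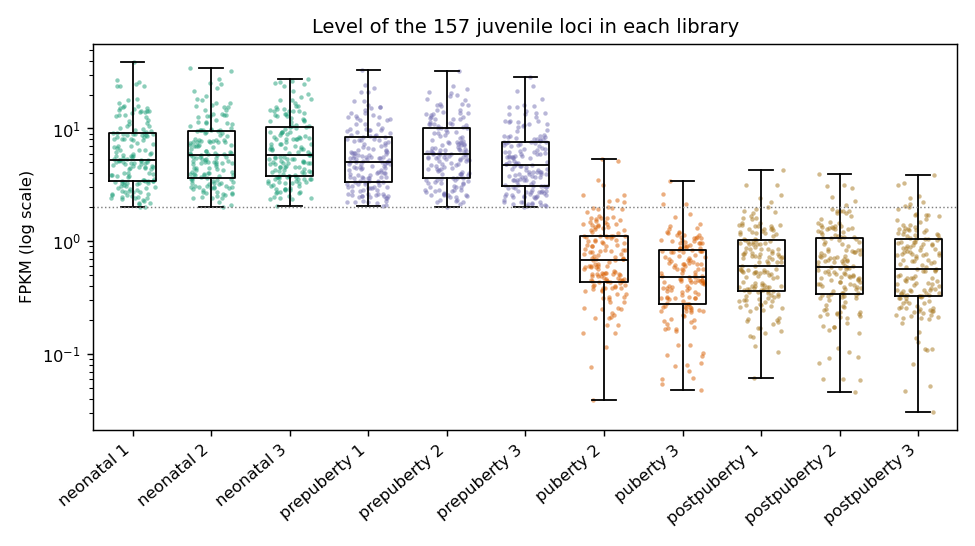
Level of the 157 loci in each of the 11 libraries, in FPKM on a log axis. Each point is a locus, boxes span the quartiles with the median as a line, whiskers reach the lowest and highest locus, and the dotted line marks the floor of 2 FPKM that the rule sets. Medians lie between 4.76 and 5.95 FPKM in the younger libraries and between 0.479 and 0.686 FPKM in the older ones, and no locus is at 0.

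The members fell at puberty but were not lost: 0 of the 157 was at 0 in any of the 5 older libraries. The fewest reads behind a value was 1 read, and 143 members had at least 10 reads in every older library. Taken as a share of each member's own younger mean, the median level left was 13.4% in puberty replicate 2, 8.81% in puberty replicate 3 and 11.2%, 10.7% and 10.8% in postpuberty replicates 1, 2 and 3. The ages thus averaged 11.1% ± 3.24 (SD, n = 2) and 10.9% ± 0.273 (n = 3). Over both older ages, 118 members kept between 5% and 15% of their younger mean, 13 kept less and 26 kept more, within a range of 1.93% to 20.2%. The tally rests on the scaling: 5% to 15% was kept by 63 members after median of ratios scaling (87 above), 100 after quantile normalization (57 below) and 50 after rescaling to TPM (102 above). The median share left was then 17.9%, 7.89% and 17.1% at puberty and 14.2%, 4.69% and 17.1% at postpuberty. The rule caps each older library at 25% of the lowest younger one, so the upper end of this range is set by the choice. The highest older value was under 1 FPKM in 98 members.

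The share left is given here for abundant and scarce and for long and short members. Members above the median younger level of 5.37 FPKM kept a median of 11.7%, and the others kept 10.5%. Members above the median implied length of 8902 bases kept a median of 11.9%, and the others kept 10.3%. Together the 157 loci took 1.36% to 1.75% of the scaling total in the younger libraries and 0.140% to 0.205% in the older ones. Their summed FPKM was 1204 ± 31.6 (SD, n = 3) in neonatal and 1061 ± 106 (n = 3) in prepuberty testis. It was 119.9 ± 33.0 (n = 2) in puberty and 122 ± 1.31 (n = 3) in postpuberty testis.

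**Figure D2:**
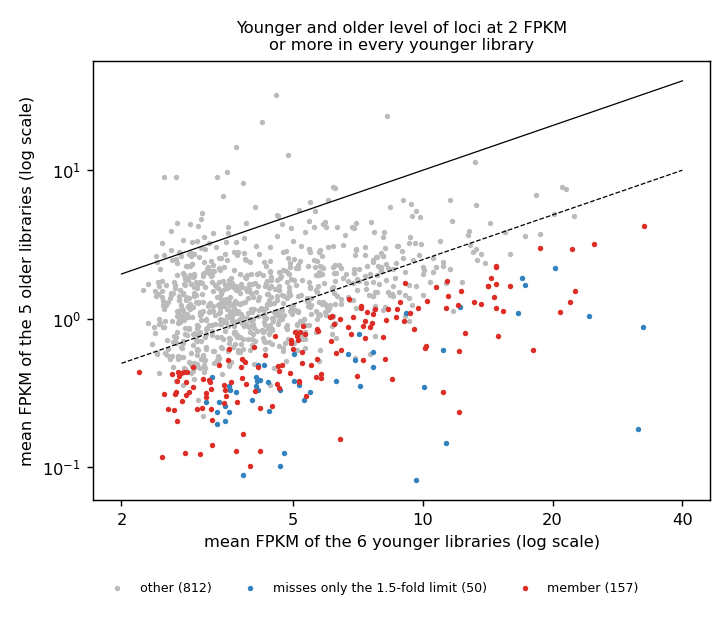
Mean FPKM of the 5 older libraries against that of the 6 younger libraries, both on log axes, for the 1019 loci that meet the limits on number, mean and floor. Red points are the 157 members, blue points the 50 loci that miss only the limit of 1.5-fold, grey points the other loci; the solid line marks equal levels and the dashed line an older mean at 25% of the younger mean. Members lie below the dashed line, with older means of 0.101 to 4.19 FPKM.

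The ratio of the lowest younger to the highest older value had a median of 5.20, against the limit of 4. It reached 5 in 91 members, 8 in 25, 10 in 13 and 16 in 7. The largest ratio, 25.7, belonged to MSTRG.275187. This locus had 10.5, 12.9 and 18.3 FPKM in neonatal, 9.76, 13.5 and 7.73 in prepuberty, 0.252 and 0.171 in puberty and 0.301, 0.213 and 0.231 in postpuberty libraries. Its older values rested on 65 to 115 reads per library, so the remaining signal was small but counted. Its mean was 51.8-fold lower in the older than in the younger libraries.

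MSTRG.400165 had the next largest ratio, 22.9, and its younger values spanned 1.26-fold. It stood at 4.04, 3.65 and 3.55 FPKM in neonatal, 4.48, 4.23 and 3.94 in prepuberty, 0.155 and 0.0776 in puberty and 0.119, 0.0459 and 0.110 in postpuberty libraries. MSTRG.390644 had 3.42, 3.22 and 3.82 FPKM in neonatal, 3.34, 4.89 and 3.38 in prepuberty, 0.115 and 0.0541 in puberty and 0.162, 0.153 and 0.156 in postpuberty libraries. All of its postpuberty libraries lay above both puberty libraries, at levels of 27 to 81 reads in the older libraries. MSTRG.390643, the identifier number before it, had 3.77, 3.05 and 4.96 FPKM in neonatal, 4.02, 5.31 and 4.08 in prepuberty, 0.183 and 0.0985 in puberty and 0.170, 0.0604 and 0.129 in postpuberty libraries. In that locus the older ages overlapped. MSTRG.275199, whose number lies 12 above that of MSTRG.275187, had 6.42, 7.54 and 8.23 FPKM in neonatal, 5.09, 7.14 and 4.08 in prepuberty, 0.212 and 0.0604 in puberty and 0.208, 0.177 and 0.111 in postpuberty libraries. Like MSTRG.275187 it was highest in neonatal replicate 3 and, among the younger libraries, lowest in prepuberty replicate 3. These were the most frequent extremes of the younger libraries among members, at 32.5% and 45.2%. Among the other 862 loci that meet the limits on number, mean and floor the shares were 30.6% and 40.5%.

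**Figure D3:**
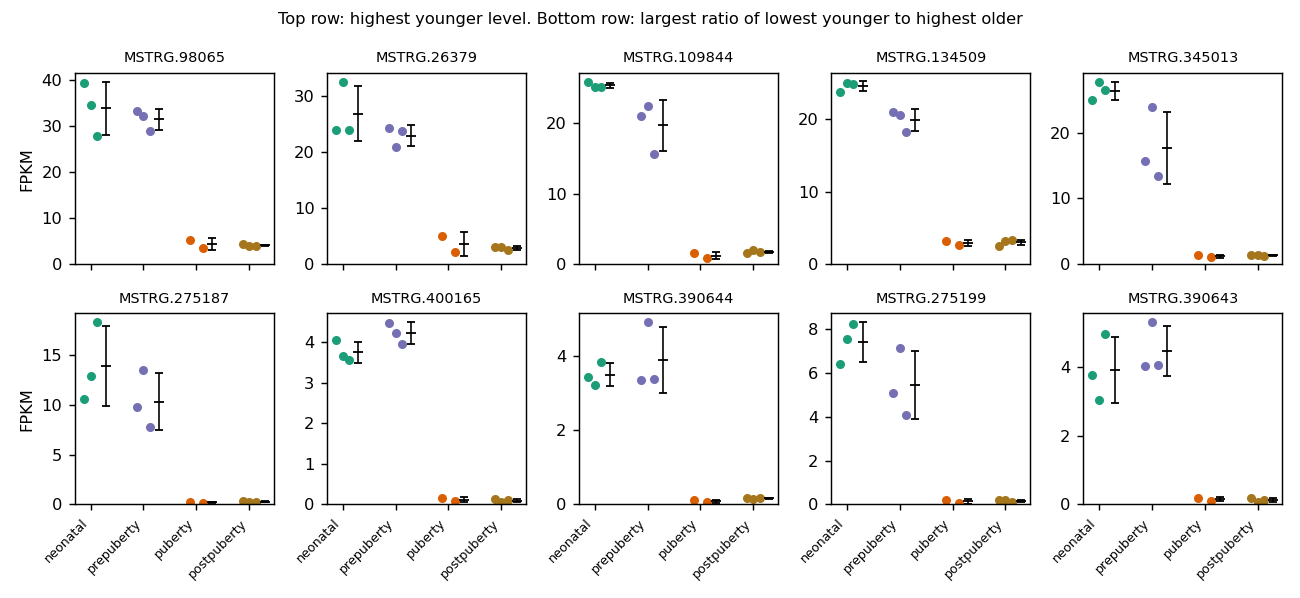
FPKM by age for the 5 members with the highest younger mean (top row) and the 5 with the largest ratio of lowest younger to highest older value (bottom row). Each point is a library, black bars give the mean and SD of the age, each panel has its own linear axis from 0, and puberty has 2 libraries where the other ages have 3. In each panel the 6 younger libraries lie above the 5 older ones, with the lowest younger value at least 4.07 times the highest older value.

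Between the younger ages the rule allows a difference of under 1.5-fold, so what follows is a description. With the authors' scaling the neonatal mean was the higher one in 110 of 157 members, but in 73 after median of ratios scaling, 89 after quantile normalization and 0 after rescaling to TPM, so the direction rests on the scaling. The first of these scalings sets the median ratio of the loci between libraries to 1, the second gives all libraries the same distribution, and TPM gives them the same sum over the listed loci. With the authors' scaling the neonatal mean was higher in 70.1% of members and 58.6% of all loci tested. It was higher in 68.0% of the other 862 loci that meet the limits on number, mean and floor. The median ratio of the neonatal to the prepuberty mean was 1.15 in members with the authors' scaling. The 3 neonatal libraries lay above the 3 prepuberty libraries in 38 members, against 17.4% of all 12954 loci tested, and below them in 9, against 6.23%. Among those other 862 loci the counts were 252 above and 90 below. A limma call needs a log2 change of at least 1, for which the limit of 1.5-fold leaves almost no room. The count of 0 members called therefore followed from the choice, and nothing is read from it against the 2.07% of all loci tested (0.826% rose and 1.24% fell). Without the limit on size, 49 members had an unadjusted p under 0.05 in limma, 41 of them lower in prepuberty, and the lowest adjusted p was 0.0213. Such an unadjusted p was found in 2918 of the 12954 loci tested, 2208 of them lower in prepuberty. It was found in 318 of the same other 862 loci, 247 of them lower. The count is thus not particular to the members. After rescaling to TPM limma called 13 members all higher in prepuberty, where 7.67% of all loci rose and 0.757% fell. Within prepuberty, replicate 2 was the highest library in 108 members and replicate 3 the lowest in 107. Among the other 862 loci that meet the limits on number, mean and floor, replicate 2 was the highest of the 3 in 55.8%, against 68.8% of members, and replicate 3 the lowest in 57.8%, against 68.2% of members. The difference between these sets was not tested.

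The limit of 1.5-fold holds the means of the younger ages together, and the spread of single libraries within it is given as a description. After rescaling to TPM 85 of the 157 members still met that limit, after median of ratios scaling 149 and after quantile normalization 143. With the authors' scaling the highest of the 6 younger values exceeded the lowest by a median of 1.64-fold, and by under 2-fold in 136 members. MSTRG.226313 varied most, with 8.78, 5.87 and 3.75 FPKM in neonatal, 4.8015, 6.23 and 2.78 in prepuberty, 0.386 and 0.167 in puberty and 0.366, 0.334 and 0.258 in postpuberty libraries. Its spread lay within both younger ages, which overlapped. MSTRG.264165 ranged from 2.05 to 5.46 FPKM in the younger libraries with a median of 3.24, and MSTRG.215238 from 2.78 to 7.25 with a median of 5.08. MSTRG.264165 was high in neonatal replicates 2 and 3 and prepuberty replicate 2 and low in the other 3 younger libraries, while in MSTRG.215238 only neonatal replicate 1 and prepuberty replicate 1 lay under 4 FPKM.

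The 2 puberty libraries differed in the same direction for most members. Puberty replicate 2 exceeded puberty replicate 3 in 136 of 157 members, or 86.6%, with a median ratio of 1.51. The share was 70.4% among the other 862 loci that meet the limits on number, mean and floor, 78.8% among all loci that fell at puberty and 58.8% among all loci tested. Among the 50 loci that miss only the limit of 1.5-fold the share was 90%, so this direction is not particular to the members. After median of ratios scaling puberty replicate 2 was higher in 127 members with a median ratio of 1.35, after quantile normalization in 119 with 1.37 and after rescaling to TPM in 116 with 1.245. The median ratio of all loci tested was 1.13 with the authors' scaling and 1.003, 0.996 and 0.928 after these scalings. Summed over the members, puberty replicate 2 held 143 FPKM and replicate 3 held 96.5, and the postpuberty libraries held 123, 123 and 121. The 3 postpuberty values fell between the 2 puberty values in 43 members, or 27.4%, against 10.4% of all loci tested. The share was 18.8% among the other 862 loci and 20.6% among all loci that fell at puberty. It was 34% among the 50 loci that miss only the limit of 1.5-fold, so it is not particular to the members.

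Postpuberty against puberty asks whether the members went on falling once puberty was reached. The rule did not use this contrast, although it sets a ceiling on both ages. The lowest adjusted p of a member in limma was 0.198, and 0 members had an unadjusted p under 0.05. Over all loci tested, 3593 of 12954 had such an unadjusted p in limma. So did 100 of the other 862 loci that meet the limits on number, mean and floor. Of the 50 loci that miss only the limit of 1.5-fold, 1 had it. The ceiling and the log2(FPKM + 1) scale both bear on the 0, so it is not read as steady levels. By the call that also needs a change of 1 on the log2(FPKM + 1) scale, 0 of 157 rose and 0 fell, where 1.26% of the 12954 loci tested rose and 0.139% fell. That call could not be reached by the 98 members whose older values all lie under 1 FPKM, a level that the ceiling of the rule bears on, so the 0 is not read against those shares. The test on recovered reads with voom, which adds no 1 to the level, called 0 members, against calls in 2.03% of all loci. By voom 4 members had an unadjusted p under 0.05, and the share of all loci at that threshold is not given here. With 2 puberty libraries these tests do not show that the levels were equal. Changes on the log2(FPKM + 1) scale ran from -0.42 to 0.36 with a median SE of 0.16, and the median was 0.01 in members against 0.18 in all loci tested. The median of the members moved to -0.12 by median of ratios, -0.13 by quantiles and 0.03 by TPM, and that of all loci to 0.03, -0.02 and 0.37. The added 1 compresses changes of such low values: with voom the changes ran from -1.79 to 0.98 on the log2 scale with a median SE of 0.33.

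In FPKM, the postpuberty mean was within 1.5-fold of the puberty mean in 140 members, over 1.5-fold higher in 8 and over 1.5-fold lower in 9. It was the higher mean in 81 members with the authors' scaling, 28 after median of ratios scaling, 12 after quantile normalization and 84 after rescaling to TPM. The puberty libraries both lay above the 3 postpuberty libraries in 10 members, against 3.88% of all loci tested, and both below them in 14, against 35.7%. Among the 50 loci that miss only the limit of 1.5-fold the counts were 2 above and 8 below. Among the 1681 loci that fell from prepuberty to puberty they were 99 and 325. The rule caps the highest older library, which can remove loci that rise after puberty, so nothing is read from these shares. The extremes, chosen after their values were seen, were MSTRG.194567 and MSTRG.333386. MSTRG.194567 had 0.739 and 0.524 FPKM in puberty and 0.521, 0.0585 and 0.109 in postpuberty libraries (limma adjusted p = 0.220). MSTRG.333386 had 0.155 and 0.159 FPKM in puberty and 0.425, 0.0939 and 0.422 in postpuberty libraries (limma adjusted p = 0.580). In each of these loci 1 postpuberty library departed from the other 2, and the older values rested on 1 to 16 reads in MSTRG.194567 and on 12 to 67 in MSTRG.333386.

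**Figure D4:**
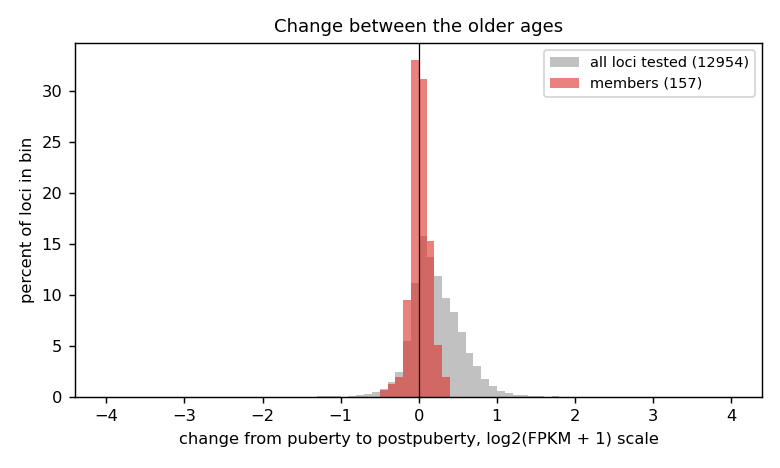
Change from puberty to postpuberty on the log2(FPKM + 1) scale, in bins of 0.1, for the 157 members (red) and all 12954 loci tested (grey), each as a percent of its own set. Members lie between -0.42 and 0.36 with a median of 0.01, while all loci have a median of 0.18; the scale narrows the spread of loci as low as the members.

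The members were long. The lengths implied by the steps of the values ran from 475 to 118860 bases with a median of 8902, and 72 members reached 10000 bases while 11 stayed under 1 kilobase. The median was 6770 bases among the other 862 loci that meet the limits on number, mean and floor, and 2239 among all loci tested. Among the 50 loci that miss only the limit of 1.5-fold it was 11194 bases, above that of the members. Greater length thus went with the limits on number, mean and floor together and was not particular to the members. The longest member, MSTRG.231783 with 118860 bases, had 13.2, 13.3 and 15.02 FPKM in neonatal, 9.96, 12.6 and 9.50 in prepuberty, 1.51 and 1.22 in puberty and 1.40, 1.87 and 1.69 in postpuberty libraries. Its values rested on 4993 to 38185 reads per library, so counting error was small there. MSTRG.231267, with 70795 bases, ranged from 4.33 to 8.40 FPKM in the younger libraries and stood at 0.499 and 0.387 in puberty and 0.440, 0.381 and 0.424 in postpuberty libraries.

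The shortest members rested on few reads. MSTRG.355764, with 475 bases, had 6.05, 7.61 and 6.16 FPKM in neonatal, 8.64, 7.92 and 7.56 in prepuberty, 1.48 and 0.610 in puberty and 0.728, 0.599 and 1.39 in postpuberty libraries. Its older values stood for 8 to 25 reads and its younger ones for 56 to 110. MSTRG.358756, with 544 bases, had 5.73, 5.06 and 6.53 FPKM in neonatal, 5.62, 6.56 and 4.68 in prepuberty, 0.774 and 0.479 in puberty and 0.529, 0.327 and 0.546 in postpuberty libraries, on 5 to 15 reads in the older ones. The differences among the older libraries of these loci were thus differences of a few reads.

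Some members had neighbouring identifier numbers. In 8 groups, 18 members lay at most 10 numbers from another member, in 2 groups of 3 and 6 of 2, and the other 139 members stood alone. Whether close numbers mean close positions is not given in the sources used here, and members of a group may be parts of one transcript. The first group of 3, MSTRG.36476, MSTRG.36479 and MSTRG.36481, was also among the most strongly lowered, with ratios of lowest younger to highest older value of 12.7, 13.6 and 10.5. MSTRG.36476 had 27.1, 19.3 and 25.6 FPKM in neonatal, 17.4, 19.5 and 16.05 in prepuberty, 1.27 and 1.06 in puberty and 1.16, 1.04 and 1.04 in postpuberty libraries. MSTRG.36479 had 18.05, 11.5 and 21.5 FPKM in neonatal, 11.965, 15.8 and 10.9 in prepuberty, 0.693 and 0.802 in puberty and 0.797, 0.727 and 0.775 in postpuberty libraries. MSTRG.36481 had 10.1, 9.75 and 12.1 FPKM in neonatal, 9.65, 11.4 and 8.07 in prepuberty, 0.678 and 0.440 in puberty and 0.735, 0.666 and 0.771 in postpuberty libraries. All 3 were lower in neonatal replicate 2 than in the other neonatal libraries, and lowest among the younger libraries in prepuberty replicate 3. Prepuberty replicate 3 was the lowest younger library in 45.2% of all members.

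The second group of 3 was scarcer and steadier. MSTRG.202533 ranged from 2.62 to 3.40 FPKM in the younger libraries with a median of 2.90, and stood at 0.322 and 0.224 in puberty and 0.207, 0.248 and 0.239 in postpuberty libraries. MSTRG.202534 ranged from 3.50 to 4.51 FPKM with a median of 3.79, and stood at 0.434 and 0.241 in puberty and 0.398, 0.416 and 0.329 in postpuberty libraries. MSTRG.202535 ranged from 2.73 to 3.76 FPKM with a median of 2.99, and stood at 0.342 and 0.367 in puberty and 0.246, 0.208 and 0.410 in postpuberty libraries. The 3 loci were thus at like levels per length, although their implied lengths of 14638, 10352 and 4105 bases differed. Of the tested loci that are no members but lie at most 10 numbers from one, 49 of 149 fell from prepuberty to puberty by limma, or 32.9%, and 28 rose, or 18.8%. Over all loci tested the shares were 13% and 23.7%. These loci could not be told apart from further parts of the same transcripts.

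By the same limma call, 157 of 157 members fell from prepuberty to puberty against 13% of all loci tested (36.7% in either direction), and 157 of 157 were lower in postpuberty than in neonatal testis against 17.7% (55.4% in either direction). The choice of members used these contrasts, so nothing is read from the counts. The choice depends on the scaling. All 157 members kept every younger library above every older one after median of ratios scaling, quantile normalization and rescaling to TPM. The ratio of 4 in the rule leaves room for such shifts, so nothing is read from this order. With the authors' scaling 28.1% of all loci tested have that order, and their share under the other scalings is not given here. The ratio of 4 was kept by 58 members after median of ratios scaling, 156 after quantile normalization and 39 after rescaling to TPM, and the lowest ratio of a member was then 2.34, 3.94 and 1.83. The median change of all loci from prepuberty to puberty itself moved from 0.26 to 0.49, -0.01 and 0.91 under these scalings, and that of the members from -1.95 to -1.62, -2.29 and -2.68.

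The 50 loci that meet all limits but that of 1.5-fold were most like the members. Their neonatal mean was the higher one in 40 and the prepuberty mean in the other 10. They kept a median of 7.49% of their younger mean in the older libraries, against 11.4% in members. These sets were not tested against each other, since both were chosen on the values. Puberty replicate 2 exceeded replicate 3 in 45 of the 50. Another group of loci lowered at puberty carries neighbouring numbers from MSTRG.164751 to MSTRG.164758. Its 4 listed loci lay between 0.749 and 2.01 FPKM in the younger libraries, and 0 of them met the floor of 2 FPKM in all 6, so they are no members.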

How the data were processed

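The 11 tables deposited by the authors list an FPKM value for every locus. Per the submitters' processing notes HISAT2 2.1.0 and StringTie 2.1.1 were used; build, annotation and counter: not given in the sources used here. The members, lists and tests were chosen with earlier results of these data known.

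The steps of the FPKM values gave whole reads for 100.0% of 24116 loci (within 0.02 reads), and with them the scaling totals, implied lengths and read numbers. If every read number of a locus has a common divisor, its implied length comes out too short.

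Tests covered loci that reached 1 FPKM in 2 or more libraries (12954, among them the 157 members, which pass by the floor of their rule). limma 3.58.1 in R 4.3.3 modelled log2(FPKM + 1) by age in the 11 libraries together (trended variance, 7 residual degrees of freedom). Calls needed both a two-sided p under 0.05 after Benjamini-Hochberg adjustment over the loci tested and a log2 change of 1 or more. The procedure was tested on simulated data, in which only loci with a puberty mean of at least 2 FPKM were changed. Most members lie below that level in the older libraries, so the simulation does not show which changes could be found in them. Separate animals per replicate are not stated in the labels, and the p-values reflect the spread among these samples only. Library pairs of 1 age differed by more than sampling noise (chi-square per locus of at least 12.4). The labels group samples by title and age.

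Members named in the text are the 5 with the highest younger mean, the 5 with the largest ratio, up to 2 on each side of each limit, any called after puberty (0 were), the 3 most variable, the 2 longest, the 2 shortest and the largest groups of neighbouring numbers. MSTRG.194567 and MSTRG.333386 fall outside these classes and were chosen after their values were seen. The design expected gene symbols for a list of 49 cell type markers, of which 0 matched. Alternatives were other pseudocounts, filters, scalings, voom, a replicate block, other limits of the rule and leaving out each library. Quantile normalization used log2(FPKM + 1) of the tested loci in limma, and FPKM of all loci where members were counted.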

Additional observations from a re-analysis of the deposited data

How the results depend on the processing

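For postpuberty against puberty, 0 members were called under each of 21 alternatives: other pseudocounts, filters and scalings, voom, no variance trend, the 5 older libraries alone, the replicate block and each library left out. These counts carry little weight, since the log2(FPKM + 1) scale keeps 98 members from a call. Of the 157, 46 entered the test on the 5 older libraries alone. With either puberty library left out, the lone one is assumed to vary like the other ages. At an unadjusted p under 0.05 there were at most 23 members, under quantile normalization. The share of all loci at that threshold in that setting is not given here, so nothing is read from the 23. Under quantile normalization MSTRG.339651 alone had an adjusted p under 0.05 (limma, 0.0479) with a change under 1. With the replicate block, limma called 0 members after puberty and 157 in each comparison across puberty. Deviations of same-numbered libraries of different ages had correlations of -0.12 to 0.05, and those of other pairs had -0.08 to 0.12. With so few libraries per age these values cannot show whether the numbers pair the libraries. For prepuberty against neonatal, added after seeing the data, rescaling to TPM called 13 members, all higher in prepuberty, where 7.67% of all loci rose; the other alternatives called 0.

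The number of members was 73 with the ratio and fold limits applied after median of ratios scaling, 259 after quantile normalization and 58 after rescaling to TPM, of which 57, 143 and 31 were members by the authors' scaling. It was 286 with a ratio limit of 3, 91 with 5, 264 with a floor of 1 FPKM, 83 with 4 FPKM and 89 with a narrower limit between the younger means. Leaving out 1 library gave 143 to 200 members.

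The median share left at puberty was 17.9% after median of ratios scaling, 7.89% after quantile normalization and 17.1% after rescaling to TPM, and 8.81% to 13.4% with 1 library left out. At postpuberty it was 14.2%, 4.69% after quantile normalization and 17.1% after TPM, and 10.6% to 11.2% with 1 library left out. The cause of these differences was not tested. Of the 29 members named by the rule (MSTRG.194567 and MSTRG.333386 not among them), 0 were called after puberty under these alternatives (lowest adjusted p 0.0912), though the sign of the change turned in at least 1 alternative for 21. Depth limits 14 members, which had under 10 reads in an older library.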
